A study of Mus musculus with 6 samples.

Results

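The 10 genes described here form the sensing end of the Toll-like receptor and MyD88 pathway: the receptors Tlr2 and Tlr4, the lipopolysaccharide-handling proteins Cd14, Ly96 and Lbp, the adaptors Myd88 and Ticam1, and the kinase family members Irak2, Irak3 and Irak4. They were chosen by symbol, and every probe set that the platform annotation gives to exactly 1 of these symbols was taken. This gave 14 of the 45037 probe sets of the array table, and they covered 9 of the 10 genes; Irak4 was not analysed here because the annotation used lists no such probe set for it. Of the 14, 11 lay above the intensity filter described with the first values below, and these 11 still covered 9 genes.

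Liver RNA of C57BL/6 mice was hybridised to 6 Affymetrix expression arrays, 1 per liver sample. The AAV8-luciferase group (3 arrays) had received an intravenous adeno-associated virus vector carrying luciferase, and the AAV8-Nfkbiz group (3 arrays) the same serotype carrying Nfkbiz, the gene of the nuclear IκB protein IκBζ. From 4 weeks after the vector, the animals of both groups were fed for 4 weeks with CDAHFD, a high-fat diet without choline and with defined amino acids that serves as a model of nonalcoholic fatty liver disease, and the livers were flushed with saline before sampling. No group without the diet or without a vector is analysed here, and the sources used here give neither the promoter of the vector nor the age or sex of the mice. The arrays hold whole liver, in which fewer cells of a type and less RNA per cell cannot be told apart.

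Toll-like receptors are membrane proteins that recognise conserved microbial molecules. Lipopolysaccharide is carried by LBP to CD14, which passes it to the complex of TLR4 with LY96, while TLR2 pairs with related receptors to recognise bacterial lipoproteins. MyD88 is the adaptor that links most of these receptors to the IRAK kinases and on to NF-κB, whereas TICAM1, also called TRIF, serves TLR4 and TLR3 and leads to interferon genes as well. Nfkbiz is itself induced downstream of MyD88, so the comparison asks whether transcripts upstream of a gene differ when that gene is supplied by a vector. In liver, Kupffer cells, the resident macrophages, carry most of these receptors, and hepatocytes secrete LBP.

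The promoters of Tlr2 and Myd88 are shown because they hold matches to motifs of the factors at the end of this pathway. RefSeq windows (GRCm38.p6) ran from 250 bases before to 50 bases after a gene start. Windows of 6 of the 10 members were searched, 7 in all since Irak3 has 2. The other members, Tlr4, Cd14, Ly96 and Lbp, were not searched here. Both strands were searched for the NF-κB consensus, which 8.46% of all 32851 windows of the same length hold, and for the interferon response element core GAAANNGAAA, which 3.44% hold. Capitals mark the matches, each sequence runs 5′ to 3′ along the gene's strand, and 20 bases are kept on either side.
Tlr2, chr3:83841587-83841801, minus strand: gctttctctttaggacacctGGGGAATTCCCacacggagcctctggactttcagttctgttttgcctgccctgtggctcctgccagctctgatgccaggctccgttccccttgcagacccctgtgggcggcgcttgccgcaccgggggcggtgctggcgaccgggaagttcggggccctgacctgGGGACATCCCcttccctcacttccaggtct
Myd88, chr9:119340029-119340078, minus strand: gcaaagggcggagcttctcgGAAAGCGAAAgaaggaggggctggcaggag
The Tlr2 window held NF-κB matches in 2 stretches, beginning 173 and 8 bases before the start that RefSeq gives; those of the first stretch overlap one another. The Myd88 window held 1 interferon element match, beginning 40 bases before the start, and no NF-κB match. No window held matches to both motifs. These are letters found in a window and not measured binding, and the windows of Ticam1, Irak2, Irak3 and Irak4 held neither motif.

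Values below are MAS5 intensities on the linear scale set by the authors. Probe sets among the lowest 40% by mean log2 intensity, below an intensity of 47.4, were not tested. Each difference is a log2 value of the Nfkbiz group less that of the luciferase group, with limma's moderated standard error (SE) and 95% intervals that are not adjusted for the number of probe sets. Nfkbiz itself marked the vector group on 1 of its 3 probe sets: 1448728_a_at read 221, 230 and 180 with luciferase and 4424, 4073 and 2006 with Nfkbiz. Its difference of 3.98 ± 0.27 (SE) passed with a limma adjusted p of 0.000901 over 27022 probe sets. The brightest by mean log2 intensity, 1417483_at, and the dimmest, 1457404_at, had differences of 0.30 ± 0.19 and -0.89 ± 0.54 and did not pass. Luciferase array 3 lay at 76.1 on principal component 2, which held 23.9% of the variance, with the other arrays between -22.8 and -8.47. Differences of tested members that moved by over 1.5 times without it are also given without it. Hepatocyte markers other than Ass1 were bright. The 9 of 10 that were measured had summed intensities of 244543 to 290162 with luciferase and 230190 to 273210 with Nfkbiz. Of the 9, Tat, which encodes a tyrosine-degrading enzyme, passed the limma test over genes (-1.17 ± 0.16, adjusted p = 0.0218). This call was lost in 5 of 19 alternatives, with adjusted p-values of 0.0097 to 0.312 over all of them, and among the lost were the fits without luciferase array 2, Nfkbiz array 1 or Nfkbiz array 2. The list as a whole held 4 positive and 5 negative differences, and the positive ones, Alb, Ttr, Apoa1 and Fgb, lay between 0.028 and 0.15.

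None of the 11 tested probe sets of the pathway passed the threshold of 0.05 on the limma adjusted p, in a comparison in which 0.0703% of all probe sets passed. At an unadjusted p below 0.05, limma also found 0 of the 11, where 10.6% of all probe sets were found. The groups did not overlap for 1 of the 11, a Tlr4 probe set, against 16.7% of all probe sets, or 7.03% when only probe sets higher with Nfkbiz are counted. Differences were positive for 8 and negative for 3, and adjusted p-values ran from 0.485 to 0.991. At the level of genes, each represented by its brightest probe set by mean log2 intensity, 0 of 9 members passed, where 0.225% of 13312 genes did. An unadjusted limma p below 0.05 was found for 0 of the 9 and for 12.0% of all genes. The members' median log2 difference was 0.30, with 6 positive and 3 negative, beside a median of -0.02 over all genes tested.

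**Figure D1:**
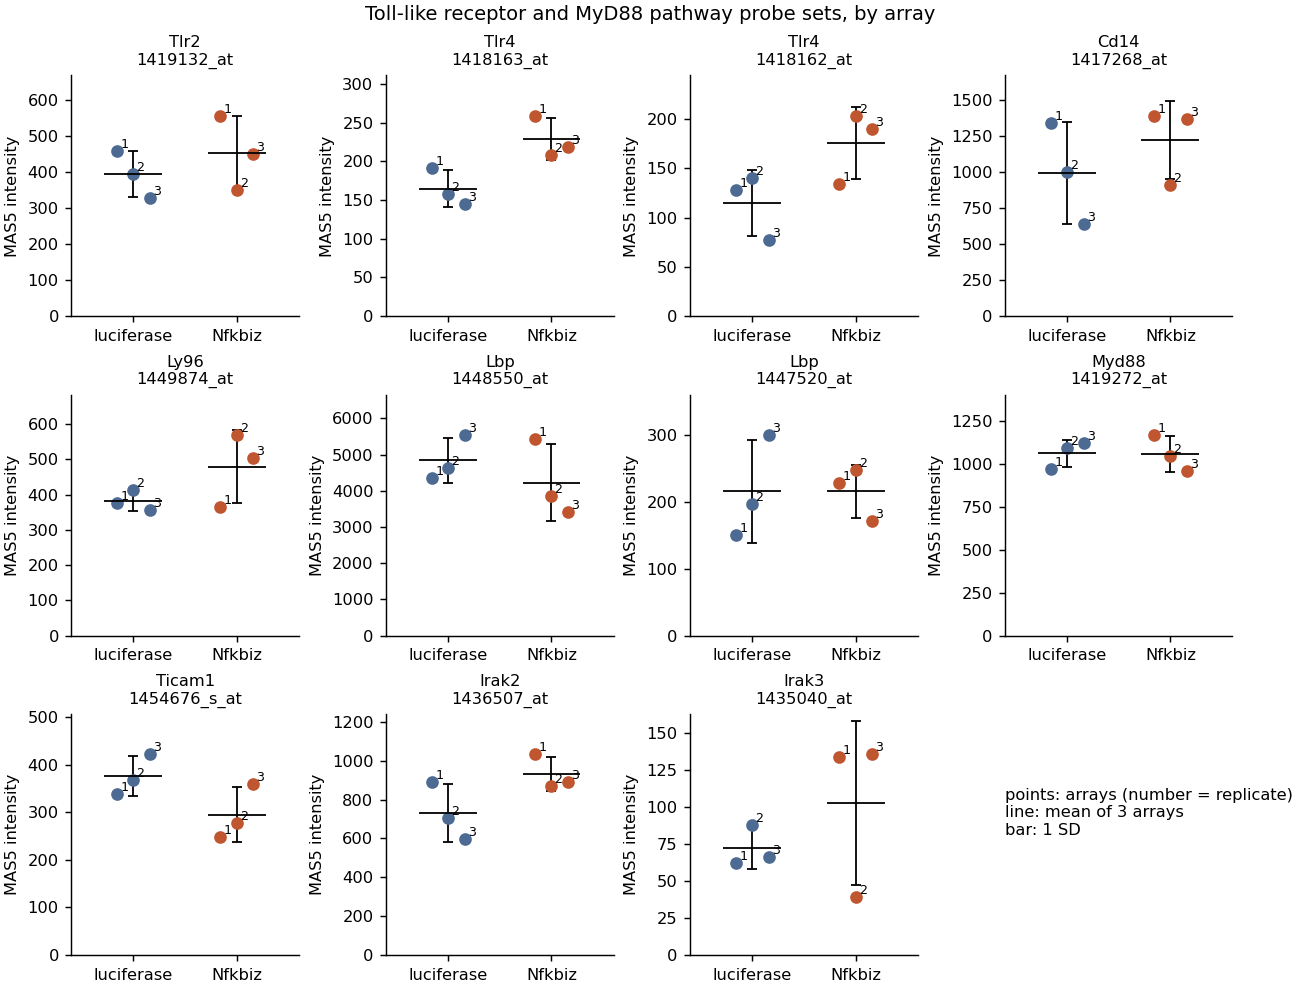
MAS5 intensity (linear axis from 0) of the 11 tested probe sets on each of the 6 arrays, with the mean and 1 SD of the 3 arrays of each group; numbers beside the points are replicate numbers. The groups overlap in every panel except Tlr4 1418163_at, where the Nfkbiz arrays read 209 to 259 and the luciferase arrays 145 to 191.

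Tlr4, the lipopolysaccharide receptor gene, had positive differences on both of its probe sets above the filter. Its brightest probe set, 1418163_at, read 191, 157 and 145 on luciferase arrays 1 to 3, against 259, 209 and 218 on the corresponding Nfkbiz arrays. Every Nfkbiz array was above every luciferase array. The difference was 0.48 ± 0.22 (SE), a 1.39-fold ratio with a 95% interval from 0.988 to 1.96, and the limma adjusted p was 0.485. A second probe set, 1418162_at, read 128, 140 and 77.2 against 134, 203 and 190, with a difference of 0.63 ± 0.31 (limma adjusted p = 0.51). Here the first Nfkbiz array lay between the luciferase arrays, and without the third luciferase array the difference was 0.37.

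The other 2 Tlr4 probe sets were below the filter and were not tested. Probe set 1442827_at read 57.8, 52.7 and 44.4 against 32.6, 42.1 and 48.6, a log2 difference of -0.34, and the groups overlapped. Probe set 1430695_at had group means of 10.7 ± 4.65 and 9.78 ± 2.48 (SD, n = 3). The dim probe sets thus did not repeat the positive difference of the 2 brighter ones. The sources used here do not say which part of the transcript each one reads.

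Tlr2, the lipoprotein receptor gene, was measured by 1 probe set, which read 458, 396 and 329 with luciferase and 557, 349.95 and 449 with Nfkbiz. The second Nfkbiz array was below 2 of the 3 luciferase arrays, so the groups overlapped widely. The difference was 0.19 ± 0.22 (95% interval -0.29 to 0.67, limma adjusted p = 0.793). It was 0.022 without the first Nfkbiz array, 0.36 without the second and 0.061 without the third luciferase array.

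**Figure D2:**
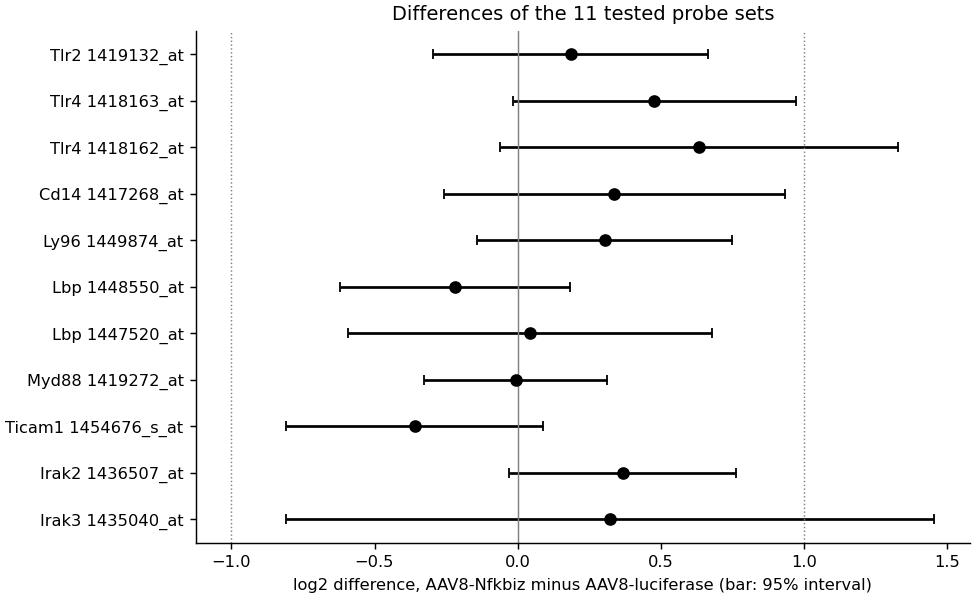
Log2 differences, Nfkbiz less luciferase, of the 11 tested probe sets, with limma's 95% intervals; the dotted lines mark a log2 difference of 1 in either direction. All 11 intervals include 0, and 9 of the 11 lie between the dotted lines.

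Among the proteins that hand lipopolysaccharide to TLR4, the Cd14 and Ly96 genes had positive differences and Lbp had none that its probe sets shared. Cd14, the co-receptor gene, read 1342, 1003 and 636 with luciferase and 1391, 909 and 1367 with Nfkbiz. The third luciferase array was the lowest of all 6, and the second Nfkbiz array lay below luciferase arrays 1 and 2. The difference was 0.34 ± 0.27 (95% interval -0.26 to 0.93, limma adjusted p = 0.685). Without the third luciferase array it was 0.049, and without the first luciferase array it was 0.59.

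Ly96, which encodes the subunit of the TLR4 complex that binds lipopolysaccharide, read 377, 414 and 357 against 365, 569 and 504. Nfkbiz arrays 2 and 3 were above all luciferase arrays, while array 1 was among them. The difference was 0.30 ± 0.20 (95% interval -0.14 to 0.75, limma adjusted p = 0.621). It was 0.17 without the second and 0.49 without the first Nfkbiz array.

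Lbp, the gene of the plasma protein that carries lipopolysaccharide, was read by 2 probe sets whose differences had opposite signs. The brighter one, 1448550_at, read 4344, 4642 and 5541 with luciferase and 5427, 3846 and 3404 with Nfkbiz, a difference of -0.22 ± 0.18 (limma adjusted p = 0.701). Leaving out Nfkbiz array 1 gave -0.41, Nfkbiz array 3 -0.076 and luciferase array 3 -0.12. Nfkbiz arrays 2 and 3 were below all luciferase arrays, and array 1 was above 2 of them. The other, 1447520_at, read 150, 197 and 300.008 against 228, 248 and 171, a difference of 0.043 ± 0.29 (limma adjusted p = 0.971), which had a negative sign when luciferase array 1, Nfkbiz array 1 or Nfkbiz array 2 was left out and was 0.31 without luciferase array 3. Both probe sets had their highest reading on the third luciferase array, where Cd14 had its lowest.

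The adaptor genes Myd88 and Ticam1 gave the narrowest interval and the most negative difference among the members, in that order. Myd88 read 973, 1092 and 1124 with luciferase and 1169, 1048 and 962 with Nfkbiz, with group means of 1063 ± 79.2 and 1060 ± 104 (SD, n = 3). The group means were nearly equal and the Nfkbiz arrays held both the highest and the lowest reading. The difference was -0.0064 ± 0.14 (limma adjusted p = 0.991), and its 95% interval, as a ratio, ran from 0.798 to 1.24. The sign of so small a value changed with the scaling: it was positive after quantile, median or loess normalization and with array weights, and it was 0.035 without the third luciferase array.

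Ticam1, the gene of the adaptor of the interferon branch, read 338, 367 and 422 against 249, 277 and 359. The first and second Nfkbiz arrays were below all luciferase arrays, and the third lay within their range. The difference was -0.36 ± 0.20 (95% interval -0.81 to 0.09, limma adjusted p = 0.557), a ratio of 0.779. It was -0.51 without the third and -0.25 without the first Nfkbiz array. The ID of this probe set, 1454676_s_at, ends in _s_at, Affymetrix's mark for probes that match more than a single transcript.

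Of the kinase family genes, Irak2, whose product takes part in signalling from MyD88, read 891, 704 and 595 with luciferase and 1032, 869 and 891 with Nfkbiz. The groups overlapped only through luciferase array 1, which lay above Nfkbiz array 2. The difference was 0.37 ± 0.18 (95% interval -0.03 to 0.76, limma adjusted p = 0.501), 0.23 without the third and 0.52 without the first luciferase array. Irak3, whose product restrains the pathway, read 62.2, 87.9 and 66.1 against 134, 38.9 and 136 on 1435040_at. The Nfkbiz group held the lowest reading and the 2 highest, and its difference of 0.32 had an SE of 0.51 (limma adjusted p = 0.855) and an interval, as a ratio, from 0.571 to 2.74. It was 0.92 without the second Nfkbiz array, 0.02 without the third and 0.029 without the first. The other Irak3 probe set, 1430704_at, was below the filter and not tested. It read 46.7, 47.2 and 10.8 against 70.7, 69.0 and 38.8, with overlapping groups and group means of 34.9 ± 20.9 and 59.5 ± 17.9 (SD, n = 3).

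**Figure D3:**
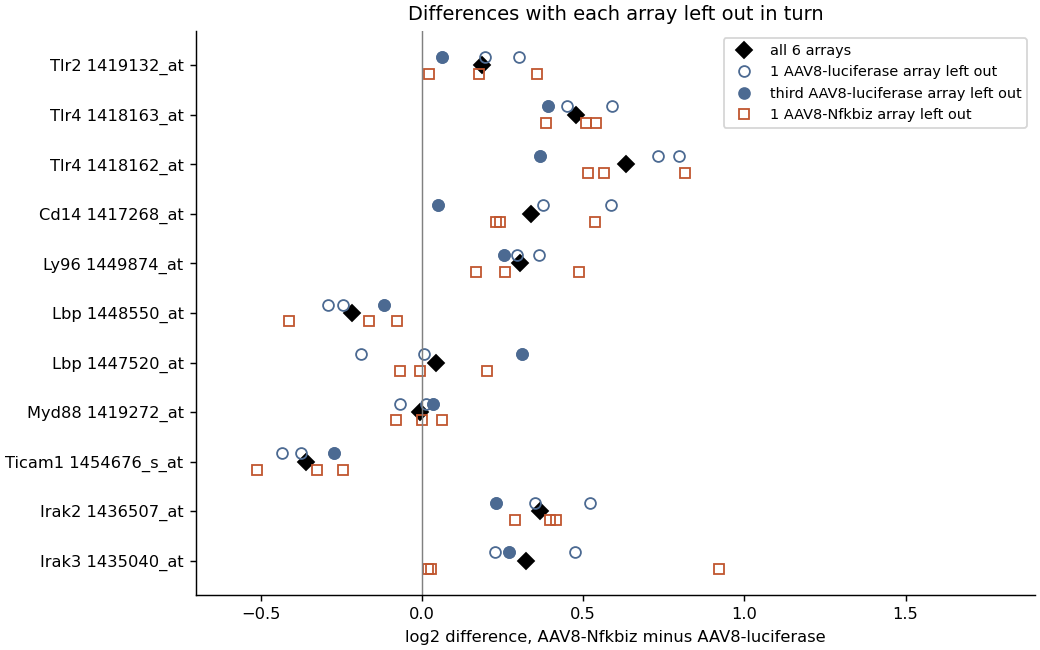
Log2 differences of the 11 tested probe sets with all 6 arrays (diamonds) and with each array left out in turn (circles for luciferase, squares for Nfkbiz arrays). Without the third luciferase array (filled circles) Cd14 sits at 0.049 instead of 0.34, while both Tlr4 probe sets stay above 0.35.

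The third luciferase array held the lowest reading of 6 of the 11 probe sets and the highest of 3 others. The lowest were those of Tlr2, Tlr4 (both probe sets), Cd14, Ly96 and Irak2, and the highest those of Lbp (both) and Ticam1. The first Nfkbiz array held the highest reading of 5 probe sets. On the log2 scale, Cd14 on the third luciferase array was 0.75 below its mean over the 6 arrays and Irak2 0.46 below, and macrophage and Kupffer cell markers, averaged over 24 genes, were 0.59 below. The markers of sinusoidal endothelium were 0.80 below on that array, while hepatocyte markers were 0.07 below. This hepatocyte mean was lowered by Ass1, the dimmest of its 9 genes, which read 584, 608 and 60.5 on luciferase arrays 1 to 3. The summed hepatocyte intensity of the third luciferase array, 274262, lay between those of the first and second, 244543 and 290162. On other arrays members and macrophage markers did not always lie on the same side of their means. On Nfkbiz array 2 the macrophage markers were at 0.29, with Ly96 at 0.42 but Cd14 at -0.23 and Tlr2 at -0.25. On Nfkbiz array 1 the markers were at 0.35, Cd14 at 0.38 and Ly96 at -0.22. On luciferase array 1 the markers were at -0.16 and Cd14 at 0.33.

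The macrophage and Kupffer cell markers were higher on the Nfkbiz arrays as a sum, at 75218 to 93336 against 51030 to 70317 on the luciferase arrays. All 24 listed markers were measured; 0 passed the limma test over all genes. At an unadjusted p below 0.05 limma found 14 with a positive difference, against 5.03% of all genes, and 0 with a negative one, against 7%. Differences were positive for 20 and negative for 4 (Gpnmb -0.45, Cx3cr1 -0.48, Itgax -0.36 and Csf1r -0.05), with a median of 0.54. The ratio of the group means of the sums was 1.37, and 1.24 without the third luciferase array, a setting added after seeing the data. The smallest p-values were those of Cd5l, a macrophage-secreted protein gene, Aif1 and C1qa, a complement gene, with differences of 0.83 ± 0.16, 0.79 ± 0.19 and 0.59 ± 0.15 (limma adjusted p = 0.092, 0.17 and 0.183 over genes). Neutrophils also carry Cd14 and Tlr2, and their markers had sums of 1122 to 1598 on the luciferase and 1366 to 2957 on the Nfkbiz arrays over 6 measured of 10 listed, with Ly6g and Retnlg not analysed here and Cxcr2 and Camp below the filter. Of the 6, 5 differences were positive, from 0.005 for Ngp to 0.85 for S100a8, and 1 was negative (Csf3r -0.48 ± 0.35). The ratio of the group means of these sums was 1.53, and 1.14 without Nfkbiz array 1. The sums of T and NK cell markers, 11 measured of 15, ran from 1031 to 1108 with luciferase and from 1203 to 2046 with Nfkbiz. Of these, Gzma, a granzyme gene of cytotoxic cells, passed the limma test over genes (1.77 ± 0.28, adjusted p = 0.0427), a call lost in 10 of 19 alternatives, each of the fits without 1 array among them. Differences of the 11 were positive for 8 and negative for 3 (Cd3e -0.67, Gzmb -0.18 and Cd8a -0.09). For this list the ratio of the group means of the sums was 1.46, and 1.24 without Nfkbiz array 1. B cell markers summed to 875 to 1301 with luciferase and 1182 to 1578 with Nfkbiz, and 2 of 9 had a positive difference with an unadjusted limma p below 0.05, among them Cd79b (1.19 ± 0.36). Sinusoidal endothelium markers summed to 6357 to 12964 with luciferase and 11195 to 14860 with Nfkbiz. Of these 10 genes, 9 had a positive difference and 1 a negative one (Stab1 -0.20). An unadjusted limma p below 0.05 was found for 2, both positive. The ratio of the group means of the sums was 1.32, and 1.12 without luciferase array 3. Stellate cell markers summed to 26311 to 44749 with luciferase and 26172 to 35299 with Nfkbiz, and cholangiocyte markers to 715 to 1466 and 670 to 978. At the same unadjusted p, 3 of 10 stellate cell and 1 of 6 measured cholangiocyte markers had a negative difference and 0 of either a positive one. What part these markers have in the differences of the receptor genes was not tested.

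**Figure D4:**
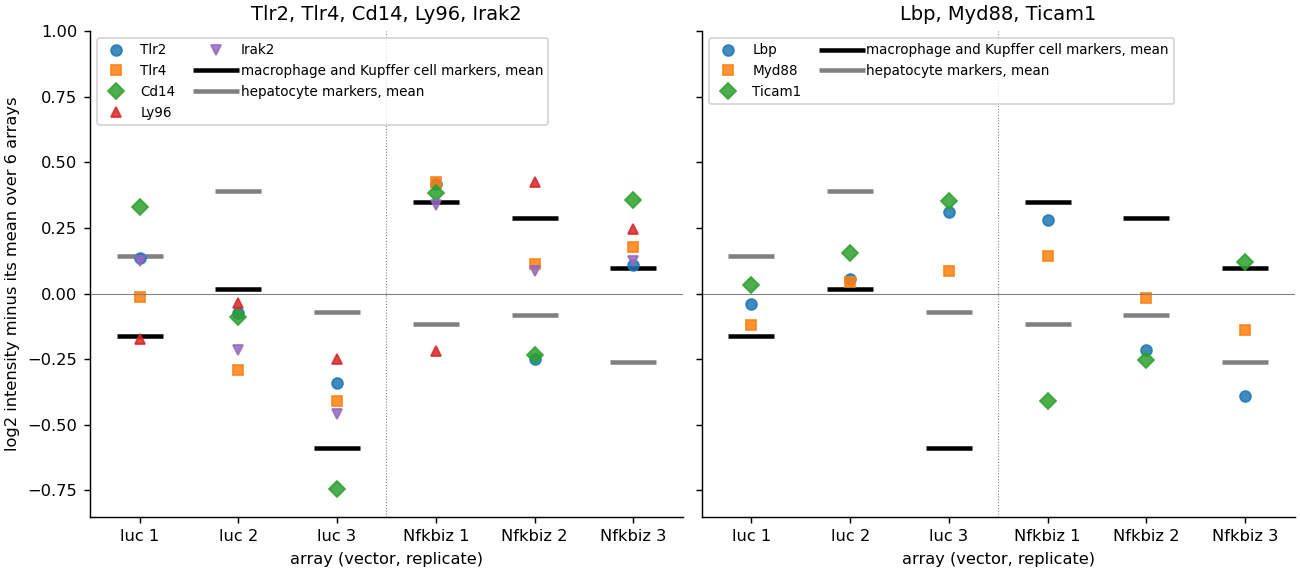
Log2 intensity minus its mean over the 6 arrays, for the brightest probe sets of 8 members (points) and for the mean of the macrophage and Kupffer cell and the hepatocyte markers (bars), by array. On the third luciferase array the macrophage markers sit at -0.59 and Cd14 at -0.75, while Lbp and Ticam1 sit at 0.31 and 0.35. The other measured member, Irak3, is not drawn. It lay at -1.03 on Nfkbiz array 2, where the macrophage markers sit at 0.29.

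The rest of the pathway was read from lists of 63 genes set by role, of which 56 had a probe set and 53 were tested. None passed the limma test over all genes. At an unadjusted p below 0.05 limma found 8, of which 6 were positive and 2 negative, where 12.0% of all genes were found, 5.03% positive and 7% negative. The groups did not overlap for 7 with a positive and 6 with a negative difference, against 18.0% of all genes, 8% positive and 10% negative. The median difference of the 53 genes was -0.09, and 32 of them were negative.

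Among the other receptors and their chaperones, 13 genes were tested with a median of -0.14. Ly86, which encodes the partner of the receptor-like CD180, read 1704, 1654 and 1173 with luciferase and 2387, 2332 and 2798 with Nfkbiz. All Nfkbiz arrays were higher, and the difference was 0.75 ± 0.17 (limma adjusted p = 0.141 over genes), 0.57 without the third luciferase array. Cd180 itself differed by 0.02 ± 0.30. Tlr12 had a difference of 0.61 ± 0.31 and Cnpy3, a chaperone of Toll-like receptors, of -0.27 ± 0.16. The receptor genes Tlr1, Tlr3, Tlr5, Tlr6, Tlr7, Tlr8 and Tlr13 lay between -0.32 and 0.76, and 0 of them had an unadjusted p below 0.05. Tlr9, the receptor for unmethylated DNA, was below the filter with readings of 80.4, 47.8 and 5.68 against 103, 67.4 and 55.2.

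The first IRAK gene and the remaining adaptors gave mixed readings. Irak1 had a difference of 0.45 ± 0.19 on its brightest probe set, 1438120_x_at (limma adjusted p = 0.387 over genes), and 0.68 without the third luciferase array (limma adjusted p = 0.105, range 0.105 to 0.88 over the alternatives). In the fit over probe sets its 4 probe sets disagreed in sign: 1438120_x_at read 0.45 ± 0.20 and 1438857_x_at 0.34 ± 0.23, but 1448668_a_at read -0.25 ± 0.15 and 1460649_at -0.20 ± 0.15. The 2 with positive values end in _x_at, the mark for probes that may cross-react with other transcripts. Tirap, the adaptor gene that brings MyD88 to TLR2 and TLR4, differed by -0.064 ± 0.14, and Sarm1 was below the filter.

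In the relay from TRAF6 to the IKK and MAP kinases, 16 genes were tested with a median of -0.17, 11 of them negative. Map2k6, the gene of a kinase that activates p38, read 378, 354 and 259 with luciferase and 96.8, 185 and 163 with Nfkbiz. It had the most negative difference of the 53 genes, -1.19 ± 0.28 (limma adjusted p = 0.164 over genes), with no overlap. Ube2v1 and Ube2n, which encode the pair of proteins that build the ubiquitin chains made with TRAF6, had differences of -0.52 ± 0.15 and 0.34 ± 0.13, and other probe sets of the same genes read -0.13 ± 0.13 and -0.16 ± 0.20. Traf6, the gene of the ubiquitin ligase itself, had a difference of -0.35 ± 0.25 on the brightest of 5 probe sets, and these did not share a sign. It was -0.20 without the third luciferase array.

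The list of the TRIF branch and interferon regulatory factors had a median of 0.16 over 9 tested genes, 7 of them positive. Irf7, the gene of an interferon-inducible regulator, read 2275, 2682 and 2457 against 3552, 4134 and 3008, with a difference of 0.52 ± 0.14 (limma adjusted p = 0.201 over genes) and no overlap. Ripk3 had a difference of 0.75 ± 0.30 and Irf5 of 0.45 ± 0.21 on its brightest probe set. A second Irf5 probe set, 1449678_at, read -0.21 ± 0.23 in the fit over probe sets, the mean of both was 0.12, and the brightest alone was 0.26 without the first Nfkbiz array. The kinase genes Tbk1 and Ikbke were at 0.14 ± 0.12 and -0.21 ± 0.15. Among 13 tested regulators of the pathway, most of them inhibitors, 11 differences were negative and the median was -0.13. Peli1 (-0.31 ± 0.14), Dok3 (-0.42 ± 0.24) and Tollip (-0.13 ± 0.12) were among them, and Usp18, an interferon-induced deconjugating enzyme gene, was at 0.37 ± 0.16. Their limma adjusted p-values over genes lay between 0.413 and 0.711.

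**Figure D5:**
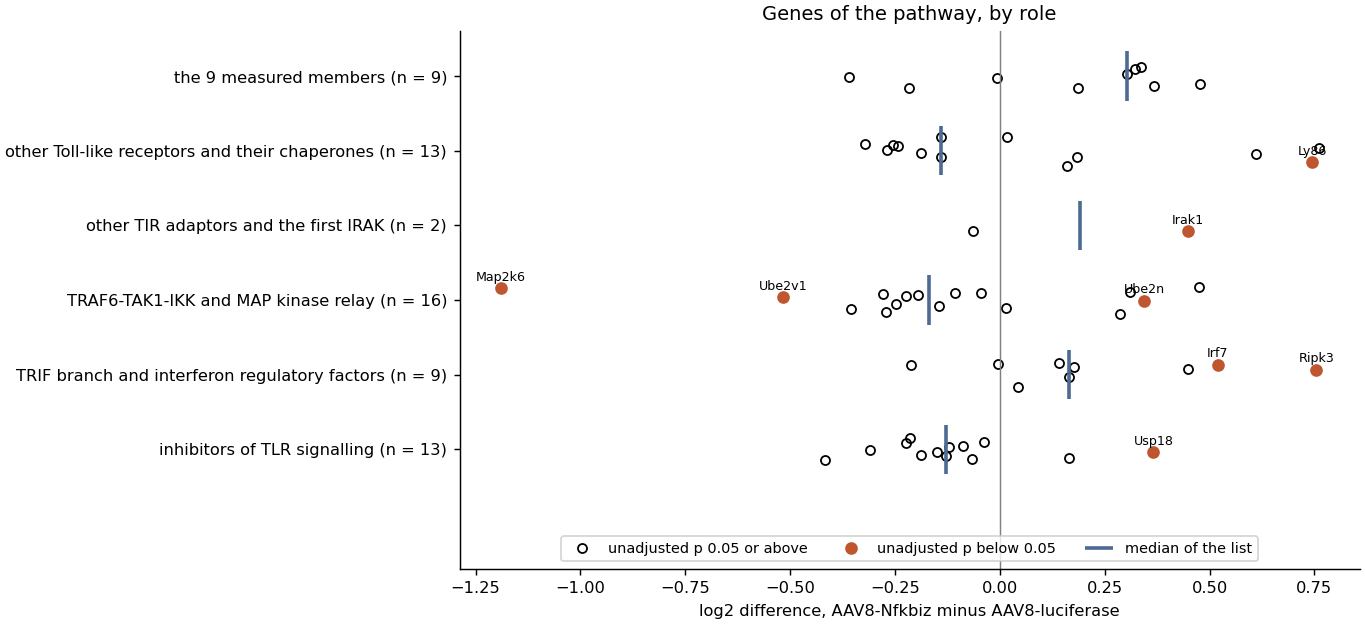
Log2 differences, Nfkbiz less luciferase, of the 9 measured members and of the 53 other tested pathway genes, by role; filled points have an unadjusted limma p below 0.05 and vertical bars are medians. No gene shown passed after adjustment, and the filled points with their names are 6 positive and 2 negative, with Map2k6 at -1.19 the farthest from 0.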

How the data were processed

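The authors deposited linear intensity values made with MAS5, per the submitters' processing notes, and no detection calls were used here. GEO's platform annotation named the probe sets: of 45037, 34945 had 1 symbol, 932 several and 9160 were not listed. Intensities were log2-transformed without further normalization and fitted with limma 3.58.1 (lmFit, eBayes with intensity trend) in R 4.3.3, two-sided, with Benjamini-Hochberg adjustment over all 27022 probe sets, or 13312 genes, above the filter. The procedure was run on simulated data with independent noise, and the share of changes it recovered there is not given here. The labels do not say that the samples are separate animals, so p-values reflect only how these samples vary, which may be technical, and their number limits the precision. Replicate numbers were not used as pairs in the main fit. Deviations of same-numbered arrays correlated at -0.031, 0.073 and 0.011 across probe sets, and those of differently numbered arrays at -0.104 to 0.089. Such correlations cannot show whether the arrays were handled in pairs. Genes named outside the members were Nfkbiz, per role list those with the 3 smallest unadjusted p, Irak1, Traf6, Tirap, Tlr9 and Tollip, and up to 3 per marker list; others, such as Cd180, Tlr1 and Tbk1, were chosen after their values were seen. Members and lists were chosen with earlier results of these data known. Figures used matplotlib 3.10.9.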

Additional observations from a re-analysis of the deposited data

How the results depend on the processing

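The counts of members and of wider pathway genes that passed stayed at 0 under all 16 alternatives for probe sets and all 19 for genes (other scaling, pseudocount, filter, variance prior, weights, probe set choice and each array left out). At an unadjusted p below 0.05 the count of member probe sets ran from 0 to 3, with different probe sets by setting: both Tlr4 probe sets and Irak2 after quantile and after cyclic loess normalization, Tlr4 1418163_at, Cd14 and Irak2 without luciferase array 1, and Tlr4 1418162_at, Ly96 and Lbp 1448550_at without Nfkbiz array 1. With the replicate number as a block, 0 member probe sets passed and 28 of all probe sets did, against 19. Over all probe sets the count ran from 0 (no intensity trend, 2429 at an unadjusted p below 0.05) to 77 (array weights), and was 30 with a pseudocount of 16 and 46 with the lowest 60% left out. Over genes it ran from 0 (no intensity trend, 1350 at an unadjusted p below 0.05) to 62 (array weights) and was 13 with the mean and 10 with the most variable probe set. With 1 array left out it ran from 8 (without Nfkbiz array 2) to 33 (without luciferase array 3) over probe sets, also past 1.5 times the full count without Nfkbiz array 1 (11), and from 9 (without Nfkbiz array 1) to 21 over genes, where every array but luciferase array 3 moved the count past 1.5 times. Signs turned for Myd88 (0.038 after quantile, 0.027 after median and 0.026 after loess normalization, 0.015 with array weights, and -0.080 to 0.061 with 1 array left out) and for Lbp 1447520_at (-0.19 to 0.31 with 1 array left out). They also turned with another choice of probe set for Irak1 (-0.20 without _s_at and _x_at), Traf6 (0.029, mean), Ube2n (-0.16, most variable) and Peli1 (0.082, mean). The cause was not tested. The other tested member probe sets kept their sign under every alternative. With 3 arrays a group the median SE of a log2 difference was 0.243 over all probe sets, and the smallest difference that passed was 0.998 in size.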

Other observations

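Traf6, the gene of the ubiquitin ligase below the IRAK kinases, was read by 5 probe sets that did not share a direction. The brightest, 1435350_at, had a log2 difference of -0.35 ± 0.25 (SE), 1421376_at one of -0.48 ± 0.55 and 1443288_at one of -0.018 ± 0.37. Probe set 1421377_at had 1.13 ± 0.46 with no overlap between the groups (limma adjusted p = 0.433 over probe sets). It was dim, at 31.8, 38.4 and 38.8 with luciferase and 83.8, 106 and 56.3 with Nfkbiz. All its luciferase readings were below the filter intensity of 47.4, so it was tested only through its Nfkbiz readings, and its difference carries little weight. Probe set 1446940_at was below the filter.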
